A study of Mus musculus with 14 samples.

Results

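Leukocyte adhesion molecules of the vessel wall were followed through 8 genes, Icam1, Icam2, Vcam1, Sele, Selp, Mcam, Madcam1 and Alcam. All probe sets annotated with 1 of these symbols were taken, which gave 16 of the 45101 probe sets on the array for 8 of 18193 genes. Probe sets were taken by gene symbol and not by level. Icam1, Icam2, Sele, Mcam and Madcam1 had 1 probe set each, Vcam1 and Selp had 3, and Alcam had 5. Where a gene had several, the brightest over all samples stood for it.

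The samples were 14 RNA preparations from mice of the FVBn background, each hybridised to 1 Affymetrix Mouse Genome array. All mice, controls included, carried loxP-flanked alleles of 3 forkhead transcription factor genes, labelled Fk1 L/L, Fk2 L/L and Afx L/L. Fk1 is now called Foxo1, Fk2 is Foxo3 and Afx is Foxo4. Experimental mice were MxCre+, and are called Cre+ here, whereas control mice were MxCre-. The Mx promoter that drives this Cre recombinase is interferon-inducible and is not restricted to endothelium. There were 3 Cre+ and 3 control samples of liver sinusoidal endothelial cells (LSEC), 2 Cre+ and 2 control samples of lung endothelial cells, and 2 Cre+ and 2 control samples of thymus. The labels give neither the age of the mice, nor the induction of Cre, nor whether replicates came from separate animals, so p-values measure the spread between these samples.

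Leukocytes leave the blood in steps. Selectins on the endothelial surface bind sugars on passing leukocytes and make them roll, chemokines then activate leukocyte integrins, and the integrins grip immunoglobulin-family ligands such as ICAM-1 and VCAM-1 before the cell crosses the vessel wall. Inflammatory cytokines induce several of these molecules through the transcription factor NF-kB. In liver sinusoids, leukocytes can arrest with little help from selectins.

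The samples were checked against marker genes. The mean log2 level of 12 pan-endothelial markers by sample was 9.97 to 10.25 in Cre+ LSEC and 10.41 to 10.76 in control LSEC, 9.29 to 9.39 in Cre+ lung and 9.54 to 9.86 in control lung samples, and 6.14 to 6.30 in Cre+ thymus and 6.04 to 6.16 in control thymus. The thymus samples therefore carried little endothelial RNA, and 7 thymocyte markers averaged 11.36 to 11.52 in Cre+ and 11.36 to 11.37 in control thymus. Lung samples also held other lung RNA: 8 epithelial markers averaged 9.80 to 9.98 in Cre+ and 9.70 to 9.88 in control lung samples. On probe set 1416982_at, floxed Foxo1 differed by -2.1 in LSEC, -1.06 in lung and -1.02 in thymus on the log2 scale (limma adjusted p = 2.67e-05, 0.0936 and 0.0422 over 27022 probe sets). Floxed Foxo3 went against the label in thymus, where 1434832_at was higher in Cre+ samples by 0.68 (adjusted p = 0.0215), and it was not lower in lung (0.10 on that probe set), whereas in LSEC it differed by -0.53 (adjusted p = 0.00474). A probe set outside the floxed part need not report deletion, and the position of these was not examined. In such bulk samples, fewer cells of a type and less RNA per cell cannot be told apart.

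In LSEC, 3 of the 7 adhesion genes tested differed between Cre+ and control samples. Mcam rose 4.04-fold, Vcam1 fell 2.09-fold and Icam1 fell 1.47-fold. Icam2 and Sele did not pass the test, nor did Selp and Alcam, whose differences were -1.26 and -0.57 on the log2 scale with adjusted p just above the threshold of 0.05. Madcam1 was too dim to be tested. Neither lung endothelial cells nor thymus had any of the 7 pass in limma, with 1 and 2 at an unadjusted p under 0.05. The share of all 13034 genes tested that passed was 6.06% for LSEC, 0.107% for lung and 0.414% for thymus. In LSEC 2.81% of all genes passed as higher and 3.25% as lower, beside 1 and 2 of the 7 adhesion genes. The median log2 difference over the 7 was -0.55 for LSEC, -0.04 for lung and 0.14 for thymus, where the medians of all genes were 0.01, 0.02 and 0.02.

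**Figure D1:**
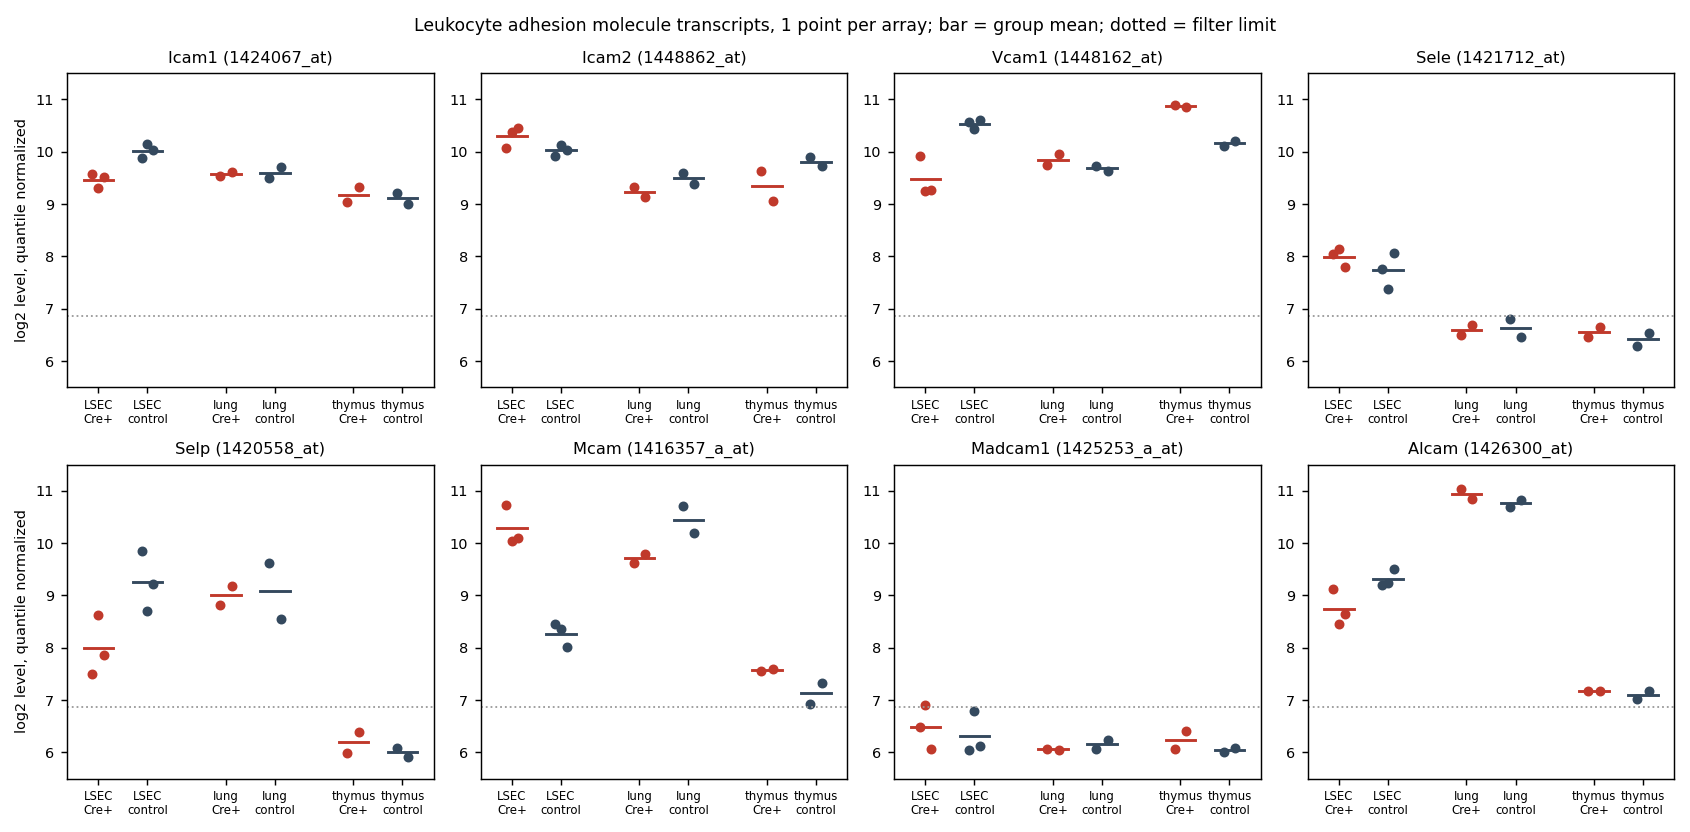
Log2 level (vertical axis, quantile normalized) of the brightest probe set of each adhesion gene in each of the 14 samples, with Cre+ (red) left of control (dark blue) in LSEC, lung endothelial cells and thymus. Points are samples, bars are group means and the dotted line at 6.87 is the limit of the filter on dim genes. Mcam in Cre+ LSEC lies between 10.03 and 10.72, above all control LSEC at 8.01 to 8.45.

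Icam1 and Mcam moved in opposite directions in LSEC. Their promoter sequences are shown, from 250 bases before to 50 after the RefSeq start in GRCm38.p6. Both are on the plus strand, Icam1 at chr9:21015690-21015989 and Mcam at chr9:44134408-44134707. Capitals mark matches, on either strand, to GGNNNTTCC, a core of the motif bound by NF-kB.
Icam1: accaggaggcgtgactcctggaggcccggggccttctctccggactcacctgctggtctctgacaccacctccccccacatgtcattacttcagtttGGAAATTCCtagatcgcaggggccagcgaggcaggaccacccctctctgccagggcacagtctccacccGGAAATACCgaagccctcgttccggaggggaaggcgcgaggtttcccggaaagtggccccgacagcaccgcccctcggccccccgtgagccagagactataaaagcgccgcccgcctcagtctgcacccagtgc
Mcam: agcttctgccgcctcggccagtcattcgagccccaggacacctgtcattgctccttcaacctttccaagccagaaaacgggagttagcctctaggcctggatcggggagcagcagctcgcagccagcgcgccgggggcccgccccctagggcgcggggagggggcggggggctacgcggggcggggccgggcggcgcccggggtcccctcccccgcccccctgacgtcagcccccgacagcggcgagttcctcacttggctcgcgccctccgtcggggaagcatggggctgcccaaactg
The Icam1 window held this core at 2 places, at positions -153 and -84 from the start, the first of which matched it on both strands. The Mcam window held none. The core occurs in 18.5% of the 32851 promoters searched. Of the 6 adhesion genes among them, it was also found in the windows of Sele, Selp and Madcam1 and not in that of Alcam. Vcam1, which also passed in LSEC, and Icam2 were not among these promoters. The forkhead core GTAAACA, searched on both strands, was in none of the 6 windows and in 3.65% of all promoters. GC content was 64.7% for Icam1, 72.7% for Mcam, 69.7% for Alcam and 41.7% for Sele, against a median of 52.7% over all promoters. These letters were chosen with the sequences in view, and a match does not show binding.

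Mcam encodes CD146, an adhesion molecule of endothelial junctions that is also expressed by pericytes and smooth muscle. Its log2 level was 10.72, 10.03 and 10.10 in Cre+ LSEC, against 8.45, 8.35 and 8.01 in control LSEC. The groups were separated by more than the range within either. The log2 difference was 2.01 (SE 0.20, limma adjusted p = 0.000192). Without any single LSEC array, the difference stayed between 1.79 and 2.13 and passed the test. Cre+ LSEC (10.28 ± 0.38, SD, n = 3) overlapped control lung endothelial cells, which stood at 10.70 and 10.19.

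The lung levels of Mcam were 9.62 and 9.80 in Cre+ samples and 10.70 and 10.19 in control samples. All Cre+ lung samples were lower, by 0.74 on the log2 scale, without passing the test (adjusted p = 0.79, unadjusted p = 0.0122 in limma). In thymus the levels were 7.55 and 7.59 in Cre+ and 6.92 and 7.33 in control samples, a difference of 0.44 (adjusted p = 0.516). The effect in LSEC exceeded that in lung endothelial cells by 2.75 on the log2 scale (95% interval 2.05 to 3.45, adjusted p = 0.0071) and that in thymus by 1.57 (0.87 to 2.27, adjusted p = 0.0302). Mcam was 1 of 7 adhesion genes to differ between the LSEC and lung effects, and 1 of 2 between the LSEC and thymus effects, where 0.614% and 2.34% of all genes did. The difference from the lung effect lost the call without lung control replicate 1 (2.49, adjusted p = 0.0502) or lung Cre+ replicate 1 (2.67, adjusted p = 0.0568). The difference from the thymus effect lost it without any 1 of 4 arrays, LSEC control replicates 2 and 3, thymus control replicate 2 and thymus Cre+ replicate 2 (1.6, 1.44, 1.37 and 1.6, adjusted p = 0.0515, 0.0503, 0.142 and 0.0991).

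None of 7 mural cell markers passed in any tissue, and for LSEC, lung and thymus 2, 0 and 1 of the 6 tested had an unadjusted limma p under 0.05. Their mean log2 level was 7.03 to 7.10 in Cre+ LSEC and 7.09 to 7.41 in control LSEC, a mean that includes Cnn1, which was too dim to be tested and averaged 2.44 in Cre+ and 4.34 in control LSEC. Of the 6 tested, Tagln, an actin-binding gene of smooth muscle, differed most, at 9.44 in Cre+ and 8.75 in control LSEC (0.69, adjusted p = 0.168), in the direction of Mcam. Acta2, the smooth muscle actin gene, averaged 11.35 in Cre+ and 11.30 in control LSEC, and Myh11, a smooth muscle myosin gene, 5.07 in Cre+ and 5.5 in control LSEC. None of the mural markers stood at 0 in all samples of a group. The part of mural cells in the Mcam difference was not tested.

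Vcam1 encodes the ligand of the leukocyte integrin alpha4 beta1. On its brightest probe set, 1448162_at, the log2 level was 9.91, 9.25 and 9.26 in Cre+ LSEC, against 10.56, 10.43 and 10.61 in control LSEC. Every Cre+ sample was below every control sample, and replicate 1 was the highest of the Cre+ samples. The difference was -1.06 (SE 0.15, limma adjusted p = 0.00199), and the other probe sets gave -0.96 on 1415989_at and -0.80 on 1451314_a_at (adjusted p = 0.0271 and 0.00454 over all probe sets tested, of which 5.23% passed). Leaving out any single LSEC array gave -1.28 to -0.95, with the call kept.

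In thymus the order was the other way: Vcam1 stood at 10.89 and 10.85 in Cre+ samples and at 10.11 and 10.21 in control samples, a difference of 0.71 that did not pass (limma adjusted p = 0.135, unadjusted p = 0.00294). The groups did not overlap on any of the 3 probe sets, and the log2 differences of the others were 0.74 and 0.32. The lung levels were 9.74 and 9.96 in Cre+ and 9.72 and 9.64 in control samples, and the difference was 0.17 (95% interval -0.24 to 0.58). The effect in LSEC was lower than that in thymus, with a difference of -1.77 (95% interval -2.30 to -1.24, adjusted p = 0.00561), and this passed on all 3 probe sets, where 0.947% of all probe sets passed as lower. Against the lung effect the difference was -1.23 (adjusted p = 0.0516). Among the runs without a single array it passed only without LSEC Cre+ replicate 1 (-1.45, adjusted p = 0.00279), and it ranged from -1.45 to -1.12.

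Vcam1 is also made by macrophages and stromal cells. Of 12 macrophage markers none of the 11 tested passed in LSEC or thymus, and 0 had an unadjusted limma p under 0.05 in either. Their mean level was 9.84, 8.72 and 8.44 in Cre+ LSEC and 8.76, 8.72 and 9.90 in control LSEC, so Cre+ replicate 1 and control replicate 3 were the high samples. In thymus it was 8.24 and 8.32 in Cre+ and 7.85 and 7.88 in control samples, a shift in the direction of Vcam1. Clec4f, which marks Kupffer cells, the resident macrophages of the liver, averaged 6.59 in Cre+ and 6.56 in control LSEC, both under the filter limit. Of 9 stellate and fibroblast markers tested, Col1a2 and Pdgfra fell in LSEC by 0.69 and 0.62, and the list ranged from 6.14 to 6.72 in Cre+ and from 6.5 to 7.0 in control LSEC. In thymus 1 of these, the collagen gene Col3a1, rose by 0.75, and the list ranged from 7.84 to 7.91 in Cre+ and from 7.41 to 7.49 in control samples. The part of these cells in the Vcam1 differences was not tested.

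Icam1 encodes the ligand of the leukocyte integrins LFA-1 and Mac-1. Its log2 level was 9.57, 9.31 and 9.52 in Cre+ LSEC, against 9.88, 10.14 and 10.04 in control LSEC. The groups did not overlap, and the gap between the highest Cre+ and the lowest control sample was slightly wider than the range within each group. The difference was -0.55 (SE 0.11, limma adjusted p = 0.0153). It did not pass without control replicate 2 (-0.49, adjusted p = 0.0614), without Cre+ replicate 2 (-0.48, adjusted p = 0.0532) or when only the LSEC arrays were fitted (adjusted p = 0.0517).

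Lung Icam1 stood at 9.53 and 9.62 in Cre+ and 9.49 and 9.70 in control samples, and in thymus at 9.04 and 9.32 in Cre+ and 9.22 and 9.01 in control samples. The groups overlapped in both, with 95% intervals of the difference of -0.32 to 0.29 and -0.24 to 0.37. The LSEC effect differed from the lung effect by -0.53 (adjusted p = 0.316) and from the thymus effect by -0.62 (adjusted p = 0.107), so the fall in Icam1 was not shown to be particular to LSEC.

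Icam2, a ligand of LFA-1 that resting endothelium displays constitutively, stood at 10.07, 10.37 and 10.46 in Cre+ LSEC and 9.91, 10.13 and 10.04 in control LSEC. The groups overlapped, and the difference was 0.27 (95% interval -0.07 to 0.61, limma adjusted p = 0.376). It was 9.33 and 9.14 in Cre+ against 9.60 and 9.38 in control lung samples, and 9.64 and 9.05 in Cre+ against 9.89 and 9.73 in control thymus. Cre+ samples were lower in both tissues without overlap, by 0.26 and 0.47 on the log2 scale, and neither passed (adjusted p = 1 and 0.352). Groups that do not overlap were frequent among all genes, at 38.4% in lung endothelial cells and 41.6% in thymus, and 4 and 3 of the 7 adhesion genes did not overlap there. In LSEC 5 of the 7 did not overlap, beside 23.7% of all genes.

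Madcam1 encodes the ligand of the gut-homing integrin alpha4 beta7. It ranged from 6.0 to 6.91 over the 14 samples, and its highest tissue mean, 6.4, was under the limit of 6.87, so it entered no main comparison. With no filter on dim genes, the difference was 0.16 in LSEC (95% interval -0.36 to 0.69, limma adjusted p = 0.799).

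Selp encodes P-selectin, which endothelial cells and platelets store in granules and bring to the surface within minutes of activation. Its level on the brightest probe set, 1420558_at, was 7.50, 8.62 and 7.86 in Cre+ LSEC, against 9.84, 8.71 and 9.21 in control LSEC. All Cre+ samples were lower, although Cre+ replicate 2 and control replicate 2 nearly met. The difference of -1.26 (SE 0.35) did not pass (limma adjusted p = 0.0627, unadjusted p = 0.00429). Probe sets 1449906_at and 1440173_x_at gave -1.28 and -1.80, again without overlap (adjusted p = 0.0515 and 0.0632 over probe sets). On both, every Cre+ LSEC sample and some control LSEC samples lay under the filter limit, so these sizes are uncertain. Probe set 1449906_at was designed from the same sequence record as 1420558_at, so they share a target. Probe sets with an x in their name may bind related sequences. The call was gained without LSEC control replicate 2 (-1.53, adjusted p = 0.048), without LSEC Cre+ replicate 2 (-1.57, adjusted p = 0.0316) and with the mean of all Selp probe sets (-1.44, adjusted p = 0.0473). Of the 6 runs without a single LSEC array, only these 2 passed. The difference ranged from -1.57 to -0.96 over them, with adjusted p up to 0.181.

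Lung Selp stood at 8.82 and 9.18 in Cre+ samples and 9.61 and 8.55 in control samples, which overlapped. In thymus it was 5.99 and 6.39 in Cre+ and 6.08 and 5.92 in control samples, all under the filter limit. Of 8 platelet markers the 7 tested did not pass in LSEC, with 1 unadjusted limma p under 0.05. Their mean level was 8.06 to 8.26 in Cre+ LSEC and 8.0 to 8.25 in control LSEC, a mean that includes Ppbp, which was too dim to be tested and averaged 6.60 in Cre+ and 5.41 in control LSEC. Pf4, the platelet factor 4 gene, averaged 10.35 in Cre+ and 9.74 in control LSEC. Itgb3, an integrin gene of platelets and endothelium, differed most of the 7, by -1.05 on the log2 scale (adjusted p = 0.0629), in the direction of Selp. The part of platelets in the Selp difference was not tested.

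Sele encodes E-selectin, a cytokine-induced selectin of endothelium. The Sele level was 8.05, 8.15 and 7.79 in Cre+ LSEC and 7.76, 7.38 and 8.07 in control LSEC. The groups overlapped, and the difference was 0.26 (95% interval -0.12 to 0.63, limma adjusted p = 0.463). In every lung and thymus sample Sele lay under the filter limit, between 6.29 and 6.81.

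Alcam encodes CD166, which binds CD6 on T cells and is made by many epithelial, stromal and endothelial cells. On 1426300_at the level was 9.13, 8.45 and 8.65 in Cre+ LSEC, against 9.19, 9.24 and 9.51 in control LSEC. The groups met closely at Cre+ replicate 1, and the difference of -0.57 (SE 0.15) did not pass (limma adjusted p = 0.0533). The other 4 probe sets gave -0.64 to -0.78, with adjusted p of 0.062 to 0.154 over probe sets, and on 2 of them the groups overlapped. Probe set 1426301_at was designed from the same sequence record as 1426300_at, so they share a target. On 1443086_at every LSEC sample lay under the filter limit. The call was gained without LSEC Cre+ replicate 1 (-0.76, adjusted p = 0.00531), with the stricter filter (adjusted p = 0.0417) and with a moderated variance trend (adjusted p = 0.0306). Of the 6 runs without a single LSEC array, only that 1 passed. The difference ranged from -0.76 to -0.42 over them, with adjusted p up to 0.165.

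Lung Alcam on 1426300_at stood at 11.03 and 10.84 in Cre+ and 10.69 and 10.83 in control samples. Cre+ samples were higher on all 5 probe sets, by 0.18 to 0.66 on the log2 scale, and none passed. In thymus the levels were 7.17 and 7.17 in Cre+ and 7.02 and 7.18 in control samples.

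**Figure D2:**
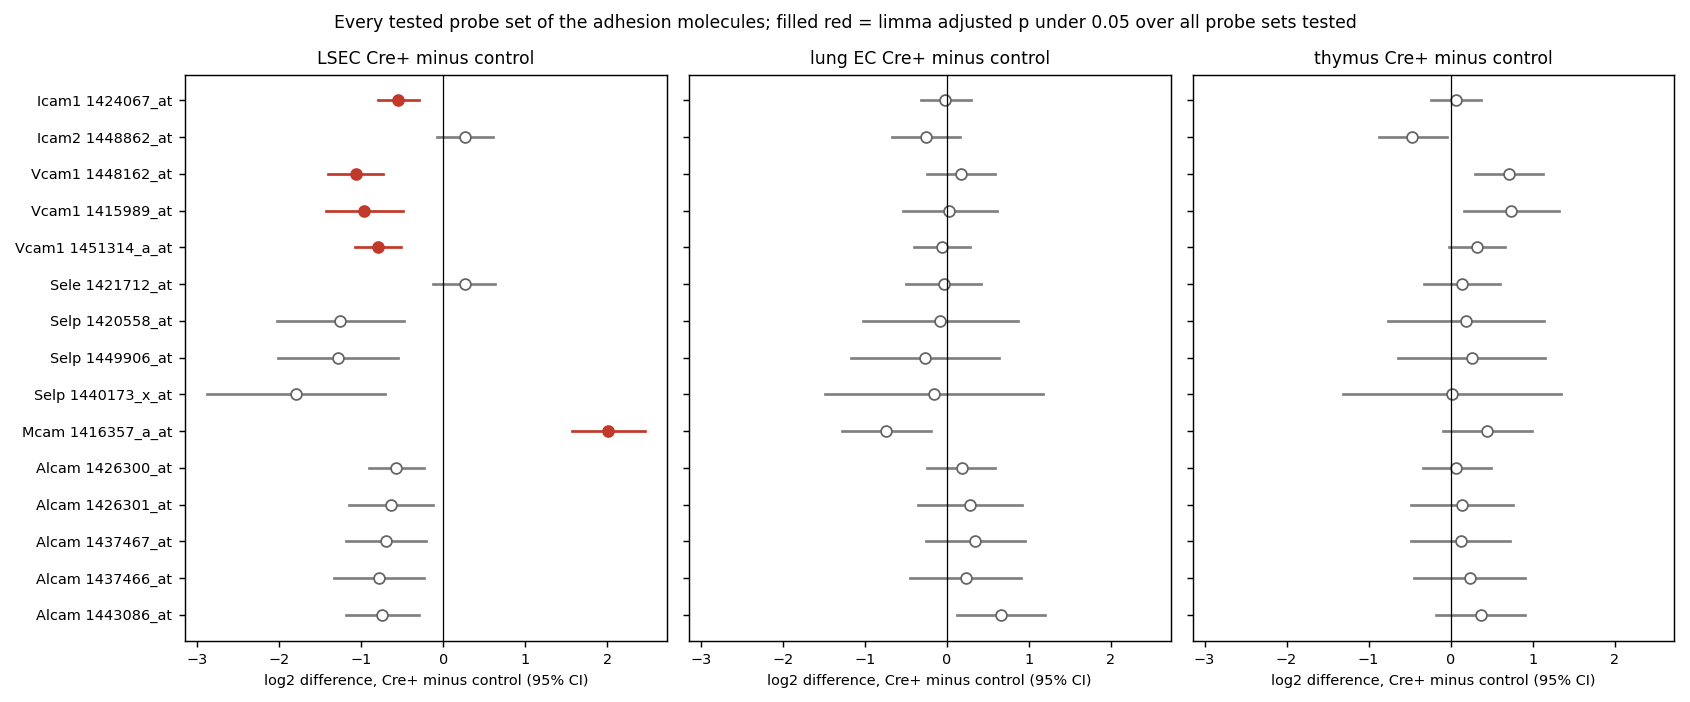
Log2 difference, Cre+ minus control, with its 95% confidence interval (horizontal axis) for each of the 15 tested probe sets of the adhesion genes in LSEC, lung endothelial cells and thymus. Filled red points passed at a limma adjusted p under 0.05 over all probe sets, which 5 did in LSEC (1 higher, 4 lower, beside 5.23% of all probe sets, 2.62% higher and 2.61% lower) and none in the other tissues (0.0333% of all in lung, 0.448% in thymus), where 2 and 3 had an unadjusted p under 0.05.

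Control samples were then compared between tissues. Of the 7 adhesion genes tested, 4 were higher and 2 lower in control LSEC than in control lung endothelial cells, in a comparison where 46.1% of all genes passed, 25.9% as higher and 20.2% as lower. Sele (1.11), Vcam1 (0.86), Icam2 (0.54) and Icam1 (0.42) were higher in LSEC by these log2 differences, with limma adjusted p of 0.000719, 0.00179, 0.0244 and 0.018. Sele lay under the filter limit in every lung sample and was tested through its LSEC level, and the size of its difference is uncertain. Mcam (-2.18) and Alcam (-1.45) were lower (adjusted p = 1.91e-05 and 5.15e-05). The median over the 7 was 0.42, against 0.08 for all genes. The lower level of Alcam passed on 4 of its 5 probe sets, beside 20% of all probe sets passing as lower. Of these 4, 1426300_at and 1426301_at share a target. The fifth, 1443086_at, gave -0.60 (adjusted p = 0.0509). Vcam1 on 1415989_at differed by 0.60 without passing (adjusted p = 0.0634). The call for Icam1 was lost without lung control replicate 1 (0.31, adjusted p = 0.162) or LSEC control replicate 2 (0.36, adjusted p = 0.0587), and that for Icam2 without lung control replicate 2 (0.43, adjusted p = 0.172), LSEC control replicate 2 (0.48, adjusted p = 0.0687) or LSEC control replicate 3 (0.53, adjusted p = 0.0505). The lung samples held epithelial and fibroblast RNA, as 10 stellate and fibroblast markers averaged 6.5 to 7.0 in control LSEC and 9.81 to 9.94 in control lung samples, and 7 mural markers averaged 7.09 to 7.41 in control LSEC and 8.43 to 8.51 in control lung samples. The part of these cells in the Alcam, Icam1 and Mcam levels was not tested.

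Selp was not shown to differ between these beds, and its probe sets pointed opposite ways. The log2 difference, control LSEC minus control lung, was 0.18 on 1420558_at (95% interval -0.69 to 1.04), -0.86 on 1449906_at and -1.03 on 1440173_x_at (limma adjusted p = 0.75, 0.0836 and 0.154 over probe sets). Control lung samples were themselves apart, at 9.61 and 8.55 on the first, 8.51 and 7.28 on the second and 8.52 and 7.28 on the third.

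Control LSEC had higher Icam1, Sele, Selp, Mcam and Alcam than control thymus, 5 of 7 genes where 64.9% of all genes passed, 37.1% as higher and 27.9% as lower. The log2 difference was 3.25 for Selp, 2.22 for Alcam, 1.32 for Sele, 1.14 for Mcam and 0.90 for Icam1, with limma adjusted p from 4.05e-07 to 0.000847. Icam2 differed by 0.22 and Vcam1 by 0.38 (adjusted p = 0.29 and 0.0717). Vcam1 passed on probe set 1451314_a_at, with 1.21 (adjusted p = 1.36e-05 over probe sets). Alcam did not pass on 1437467_at (0.57, adjusted p = 0.065) or on 1443086_at (0.01, adjusted p = 0.971). The thymus level of Selp and Sele lay under the filter limit, so the sizes of these differences are uncertain. Sele was again tested only through its LSEC level, so its call rests on the tissue where it was high.

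Control lung endothelial cells had higher Alcam (3.66), Mcam (3.32), Selp (3.08) and Icam1 (0.48) than control thymus, and lower Vcam1 (-0.48, limma adjusted p = 0.0444), 5 of 7 genes where 60.5% of all genes passed, 32.7% as higher and 27.8% as lower. Selp lay under the filter limit in thymus here too, so its size is uncertain. Alcam gave 3.00, 2.67 and 3.28 on 1426301_at, 1437467_at and 1437466_at, and 0.61 on 1443086_at (adjusted p = 0.0498). The Vcam1 call was lost without thymus control replicate 1 or 2 (-0.53 and -0.43, adjusted p = 0.0899 and 0.161) and without lung control replicate 1 or 2 (-0.52 and -0.44, adjusted p = 0.0951 and 0.155). Vcam1 did not pass on 1415989_at (-0.33, adjusted p = 0.292), and on 1451314_a_at the sign turned, to 0.20 (adjusted p = 0.281). The Icam1 call was lost without lung control replicate 2 or thymus control replicate 2 (0.38 for both, adjusted p = 0.0892 and 0.0866). These 3 comparisons share their control samples.

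**Figure D3:**
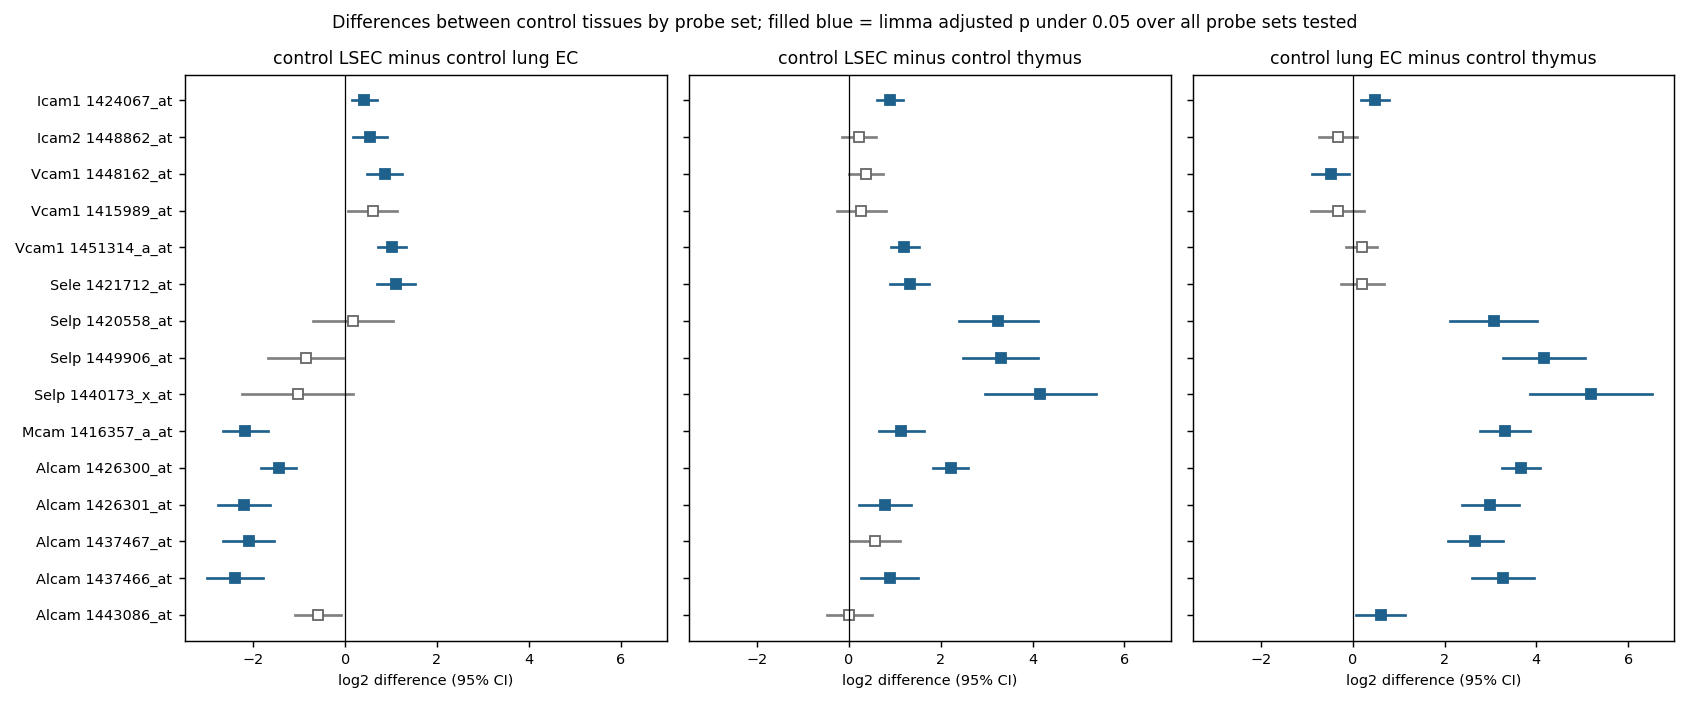
Log2 difference between control tissues with its 95% confidence interval (horizontal axis) for each tested probe set of the adhesion genes. Filled blue squares passed at a limma adjusted p under 0.05 over all probe sets. Mcam and 4 of 5 Alcam probe sets were lower in LSEC than in lung endothelial cells, and the 3 Selp intervals in that comparison include or lie close to 0.

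Ordered by level on 1448162_at, Vcam1 was highest in Cre+ thymus (10.87), then in control LSEC (10.54), control thymus (10.16), Cre+ lung (9.85), control lung (9.68) and Cre+ LSEC (9.48). Neighbours in this order had separate sample ranges down to control lung and Cre+ LSEC, which overlapped. Control LSEC thus stood next to the top and Cre+ LSEC at the bottom on this probe set, and likewise on 1415989_at. On 1451314_a_at the order was different, with control LSEC highest (9.33) and Cre+ LSEC next (8.54), above Cre+ and control thymus (8.44 and 8.12) and Cre+ and control lung (8.26 and 8.32). For Icam1 only control LSEC, at the top with 10.02 ± 0.13 (SD, n = 3), was separate from the next group, and the other 5 groups each overlapped their neighbour. For Mcam the order ran from control lung (10.44) through Cre+ LSEC (10.28), Cre+ lung (9.71), control LSEC (8.27) and Cre+ thymus (7.57) to control thymus (7.13), with an overlap between the first and second groups alone.

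Over the 14 samples, the tested gene most like Vcam1 was Foxo3, with a Pearson r of 0.90. Foxo3 is 1 of the 3 floxed genes. On 1434832_at it averaged 8.59 in Cre+ against 9.12 in control LSEC, 8.67 against 8.56 in lung endothelial cells and 9.60 against 8.92 in thymus. Mcam was most like Cd9 (0.968), Plcb1 (0.960) and Il6 (0.959), and Icam1 was most like C1qtnf1 (0.936), Ier3 (0.924) and Tmem140 (0.921). Selp followed Gja1 (0.969), a gap junction gene, Prss23 (0.962) and Klf4 (0.961), and Alcam followed Thbs1 (0.993), the thrombospondin 1 gene, Fcgr4 (0.991) and Kdelr1 (0.989). For Icam2 the closest was Dcps (0.930) and for Sele Yipf1 (0.959). Among the adhesion genes themselves, r ran from 0.84 for Selp with Alcam to -0.75 for Vcam1 with Mcam. The points come from 3 tissues with large differences between them, so these values are a description.

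Other genes of leukocyte traffic moved both ways in Cre+ LSEC. Of 21 tested partners of adhesion and transmigration, 4 rose and 4 fell, where 2.81% of all genes passed as higher and 3.25% as lower. These shares also stand beside the LSEC counts of the lists that follow. Bcam, a laminin-binding immunoglobulin-family gene, rose by 1.11, Jam2, a junctional adhesion gene, by 0.78, Podxl, a sialomucin gene, by 0.71 and Rdx, which links membrane proteins to actin, by 0.61 on the log2 scale. Ackr1, an atypical chemokine receptor gene of venular endothelium, fell by 0.87, Pecam1, the junctional CD31 gene, by 0.72, Cd99, a gene of late transmigration, by 0.49 and Cd47, which encodes a self-recognition signal, by 0.35. Podxl, Rdx, Cd99 and Cd47 are named because their values were seen to pass. Their limma adjusted p ran from 0.00452 to 0.0468, and the list median was 0.01, as for all genes.

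The cytokine and NF-kB list had 4 rises and no fall among 20 tested genes in LSEC, 6 of which had an unadjusted limma p under 0.05. Il6 stood at 8.25 ± 0.64 in Cre+ and 4.32 ± 0.15 in control LSEC (SD, n = 3 each). Il1a, the interleukin 1 alpha gene, rose by 1.80, from a control level (6.67) under the filter limit. Its lung and thymus means lay under the limit too, so it was tested through its Cre+ LSEC level (8.47). Its place among the 4 rises rests on the group where it was high, and the size of its rise is uncertain. Tnfaip3, an NF-kB target and inhibitor of the pathway, rose by 0.47 and Ikbkb, an IkB kinase gene, by 0.34. Icam1 and Vcam1 were lower in the same samples. Of 12 chemokine genes, the monocyte attractant gene Ccl2 fell by 0.97 and Cxcl10 by 0.88, the second under the filter limit in both groups. Among 11 genes of Weibel-Palade bodies, the endothelial granules that hold P-selectin, Vwf rose by 3.27, with a control level (5.97) under the filter limit as for Il6, Plat rose by 1.79 and Angpt2 fell by 3.84, while Selp differed by -1.26 without passing.

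Of 12 leukocyte receptor genes for these ligands, Cd24a, a P-selectin ligand gene that is also made by epithelial cells, rose by 1.25 in LSEC, and no gene fell. This 1 call of 12 is near the share of all genes that passed in LSEC, 6.06%. The integrin gene Itgb2 averaged 10.21 in Cre+ and 10.09 in control LSEC (adjusted p = 0.864), and Itga4, which encodes the alpha chain of the VCAM-1 receptor, 5.80 in Cre+ and 6.17 in control LSEC. None of 11 selectin ligand enzyme genes passed in LSEC, where 1 had an unadjusted limma p under 0.05. No gene of the 6 lists passed in lung endothelial cells or thymus, with 0 to 3 and 0 to 4 a list at an unadjusted limma p under 0.05. In Cre+ LSEC 9 of 10 LSEC markers fell too, and the list averaged 8.31 to 9.09 in Cre+ and 10.38 to 10.86 in control LSEC. Of 12 pan-endothelial markers, Cldn5 (-1.42), Robo4 (-1.25) and Pecam1 fell. The neutrophil gene S100a8 rose by 2.91 and the mast cell genes Tpsab1, Cpa3 and Hdc by 3.50, 2.42 and 2.59, while Kit, which mast cells and other cells express, fell by 1.17, so that 3 of 5 tested mast cell markers rose and 1 fell. The 6 neutrophil markers averaged 6.33 to 8.02 in Cre+ and 5.39 to 6.06 in control LSEC, and the 7 mast cell markers 6.61 to 7.68 in Cre+ and 5.82 to 6.05 in control LSEC. Of the 7 mast cell markers, 5 lay under the filter limit in control LSEC and 2 in Cre+ LSEC. Of the 6 neutrophil markers, 4 and 1 did. Mast cell markers could thus enter the tests through their Cre+ LSEC level, and the sizes of these rises are uncertain. The part of these cells in the adhesion gene differences was not tested.

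**Figure D4:**
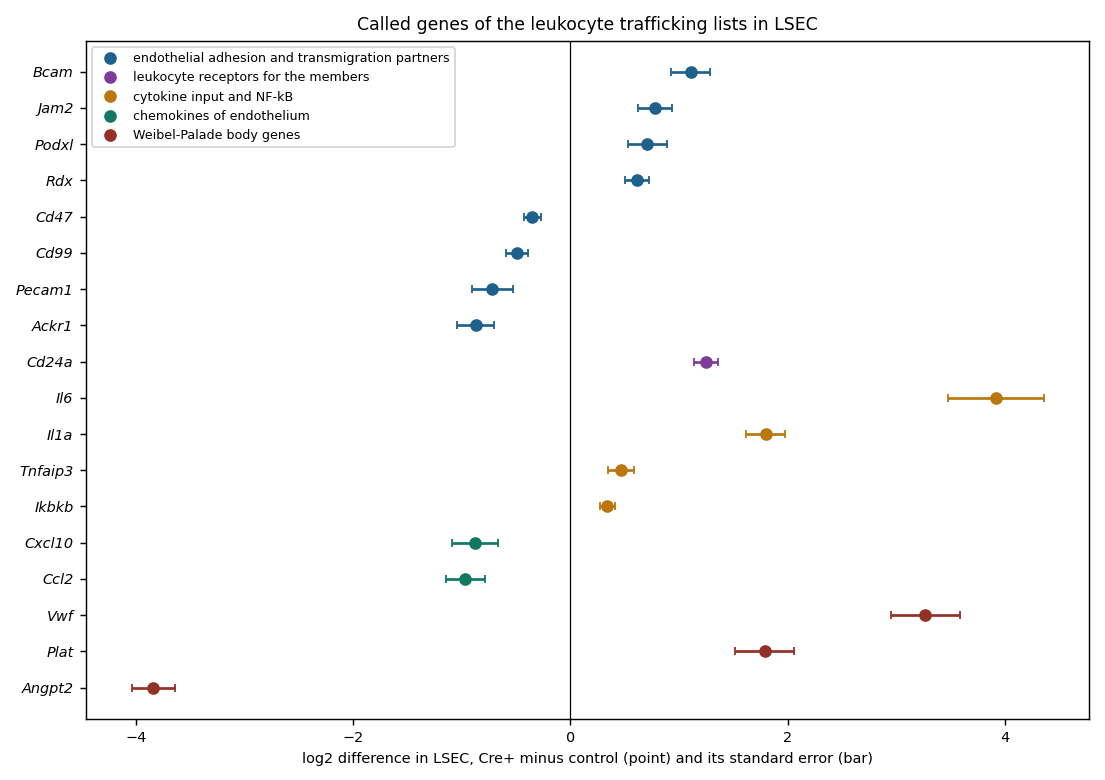
Log2 difference in LSEC, Cre+ minus control (horizontal axis, points), with its standard error (bars) for the 18 genes of 5 leukocyte traffic lists that passed at a limma adjusted p under 0.05. Colours mark the lists. Il6 (3.92) and Vwf (3.27) lie far above 0, with control levels under the filter limit, and Angpt2 (-3.84) far below.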

How the data were processed

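RNA from 14 mouse samples in 6 groups (Cre+ and control in LSEC, lung endothelial cells and thymus) was measured on 1 Affymetrix array each. The deposited values, 1 per probe set and array, were read as log2 because they lie between 0 and 13.8; no source used here states the log base or how the authors summarized and normalized the probes. Each array had 223 to 312 values of 0, none of them in an adhesion gene. Array medians ran from 6.75 to 7.04, so arrays were quantile normalized with limma 3.58.1 in R 4.3.3.

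Probe sets were named from the supplied array annotation, with symbols updated through the GRCm38.p6 gene table for 34741 of 34945 single-symbol probe sets. Several symbols were given for 932 probe sets and none for 9160. The brightest probe set stood for each gene. Tests covered the 13034 genes with a tissue mean of at least 6.87, the 40th percentile, over which arrays of a group correlated at 0.970 to 0.987. One limma model with 6 group means (lmFit, eBayes, 8 residual and 3.21 prior degrees of freedom) gave 8 contrasts, each adjusted by Benjamini-Hochberg over all genes, or over 27022 probe sets where a single probe set is named. Log2 differences are Cre+ minus control. All adjusted p-values are from limma. The number of arrays limits the precision.

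The adhesion genes, lists and tests were chosen with earlier results of these data known. The rule for naming genes allowed all adhesion genes and up to 4 passing genes of each traffic list and contrast. It also allowed up to 2 passing and the first 2 genes of each marker list, and the 3 genes most correlated with each adhesion gene. Not every gene that it allows is named. Podxl, Rdx, Cd99, Cd47, Itgb2, Itga4, Kit, Cnn1, Tagln and Itgb3 fall outside this rule and were named after their values were seen. Promoters are from RefSeq (GRCm38.p6), which matched 6 of 8 genes by symbol.

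Alternatives were median centring, values as deposited, no filter, a 60th percentile filter, the mean of a gene's probe sets, eBayes with trend and robust, array weights, only the arrays compared, a replicate block, its crossed lung form, the other probe sets, and leaving out each array.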

Additional observations from a re-analysis of the deposited data

Results flagged for a closer look

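The effect of the Cre+ genotype on 2 adhesion genes differed between tissues in a test of the difference itself. For Mcam the LSEC effect minus the lung effect was 2.75 on the log2 scale (limma adjusted p = 0.0071), with all 3 Cre+ LSEC samples above and both Cre+ lung samples below their controls. For Mcam the LSEC effect minus the thymus effect was 1.57 (adjusted p = 0.0302), with Cre+ samples above all controls in both tissues. For Vcam1 the LSEC effect minus the thymus effect was -1.77 (adjusted p = 0.00561), with all 3 Cre+ LSEC samples below and both Cre+ thymus samples above their controls. These contrasts share the LSEC samples.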

How the results depend on the processing

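With 2 or 3 arrays per group, differences near the threshold moved across it. In LSEC the falls and rise of Vcam1 and Mcam passed under each alternative run, and the directions of all 7 adhesion genes in LSEC were kept under each. Icam1 stayed between -0.62 and -0.48 without single arrays, and at -0.55 lost the call with only the arrays compared (adjusted p = 0.0517) and with a replicate block (adjusted p = 0.0966, or 0.0923 with the lung numbers crossed). The number of adhesion genes called in LSEC was 3 to 4 without single arrays.

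Same-numbered Cre+ and control samples did not deviate together (r of -0.31, -0.09 and -0.26 in LSEC, -0.24 in lung and 0.05 in thymus). No sample of LSEC correlated best with its own number. Deviations from means of 2 or 3 arrays are tied to each other, so these values cannot decide whether same-numbered samples were paired. With the replicate block, genes called were 352 in LSEC, 0 in lung, 10 in thymus, 1 for the LSEC minus lung effect and 23 for the LSEC minus thymus effect, with 0 adhesion genes called in either of the last 2. Crossing the lung numbers, chosen after seeing the data, gave 418, 3, 12, 15 and 86.

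Genes called in LSEC were 790, with 358 when only the arrays compared were fitted and 493 to 620 without single arrays, lowest without control replicate 2. In lung the 14 calls became 2 with no filter, 54 with array weights, 4 with only the arrays compared and 2 to 4 without single arrays. In thymus the 54 became 34 with median centring, 28 as deposited, 24 with no filter, 109 with the stricter filter, 31 with the mean of probe sets, 116 with trend and robust, 29 with array weights, 4 with only the arrays compared and 14 to 231 without single arrays, highest without Cre+ replicate 1. The 80 calls for the LSEC minus lung effect became 30 with no filter, 125 with trend and robust, 168 with array weights, 38 with only the arrays compared and 4 to 96 without single arrays. The 305 for the LSEC minus thymus effect became 122 with no filter, 193 with array weights, 128 with only the arrays compared and 64 to 664 without single arrays.

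For the LSEC minus lung effect, 1 adhesion gene was called, and 2 with the stricter filter, with trend and robust and with array weights, Vcam1 being the addition (adjusted p = 0.0402, 0.0265 and 0.0188), and 0 to 3 without single arrays. For the LSEC minus thymus effect, 2 became 1 with no filter, array weights or only the arrays compared, Mcam being lost (adjusted p = 0.0774, 0.068 and 0.0557), and 1 to 4 without single arrays. In the control lung minus control thymus comparison 5 became 3 to 4 without single arrays.

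Directions turned for differences that had not passed, and for the called Vcam1 in control lung minus control thymus on 1451314_a_at (0.20). For Selp in control LSEC minus control lung these were -0.57 with the mean of probe sets, -1.03 and -0.86 on its other probe sets and -0.36 to 0.71 without single arrays. For Vcam1 in lung it was -0.06 on 1451314_a_at. Without single arrays the ranges were -0.13 to 0.09 (Icam1), -0.22 to 0.13 (Sele) and -0.61 to 0.46 (Selp) in lung, -0.07 to 0.21 (Icam1), -0.01 to 0.15 (Alcam) and -0.02 to 0.39 (Selp) in thymus, and -0.06 to 0.28 (Sele) for the LSEC minus thymus effect. Vcam1 in control lung minus control thymus also lost its call with median centring (-0.33), as deposited (-0.46), with no filter (-0.48) and with the mean of probe sets (-0.20). The cause of these changes was not tested beyond the smaller number of arrays or genes that some alternatives use.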
